A study of Mus musculus with 217 samples.

Results

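The genes of GABA signalling were examined in the striatum and cortex of an inducible mouse model of Huntington's disease, as a list of 25 genes that cover synthesis, vesicular and membrane transport, breakdown, GABA-A and GABA-B receptors, receptor anchors and the chloride transporters on which the GABA-A response depends. Its rule names the genes and uses no measured value, though the list was chosen with earlier results of these data known, and all 25 members were found among the 54532 genes of the count tables. It does not hold every subunit of the receptor. A further 35 genes of the same pathway (other anchors and trafficking proteins, GABA-B partners, enzymes and carriers of glutamate and glutamine, and kinases of the chloride transporters) were counted beside it.

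The 217 libraries came from 110 mice on a C57BL/6 background and were sequenced as RNA-Seq, with 50 striatum and 50 cortex libraries at 6 months and 57 and 60 at 12 months. All mice, WT included, carried the lac repressor transgene (beta-actin-LacIR tg), which is driven by a promoter active in most cell types. WT mice were Hdh(LacO-+/+), and the LacQ140 groups were Hdh(LacO-140Q/+), that is, heterozygous for an expanded *Htt* allele whose expression the repressor lowers, without abolishing it, unless IPTG is given. WT mice were left untreated (WT) or received IPTG from embryonic day 5 without withdrawal (WT + IPTG). LacQ140 mice received IPTG from embryonic day 5 throughout, so that mutant *Htt* (m*Htt*) was expressed, whereas LacQ140_A mice never received it and LacQ140_2M and LacQ140_8M mice were withdrawn from it at 2 and 8 months, the latter group at 12 months only. Each group held 10 libraries per tissue and age, 5 from females and 5 from males, except that WT, LacQ140 and LacQ140_8M held 9 in the 12-month striatum. The 2 ages were labelled batch1 and batch2 and were deposited in separate tables, so age and batch cannot be told apart, and levels were compared only within an age.

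Library totals ranged from 33292057 to 68038831 counts. *Htt* counts, which sum both alleles and are given as CPM (counts scaled to library size) in striatum, averaged 104.5 ± 9.91 CPM (SD, n = 10) in LacQ140, 87.9 ± 9.47 in LacQ140_A and 89.0 ± 7.83 in LacQ140_2M at 6 months, where WT lay at 114 ± 14.1 and WT + IPTG at 109 ± 11.4. At 12 months they averaged 114 ± 11.7 (n = 9) in LacQ140, 94.1 ± 18.1 (n = 10) in LacQ140_A, 102 ± 11.5 (n = 10) in LacQ140_2M and 114 ± 8.58 (n = 9) in LacQ140_8M, the last within the spread of LacQ140. WT then lay at 130 ± 12.2 (n = 9) and WT + IPTG at 141 ± 12.3 (n = 10). Some libraries of both tissues carried transcripts of neighbouring regions. In 8 striatum libraries at 6 months and 16 at 12 months the summed level of markers of choroid plexus, cortical excitatory neurons, hypothalamus or thalamus exceeded 3 times the median of the striatum libraries of that age. At 6 months 5 of these 8 were WT + IPTG libraries and 1 was a LacQ140 library, and at 12 months 3 were WT + IPTG and 2 were LacQ140 libraries. In the cortex 7 libraries at 6 months and 19 at 12 months exceeded 3 times the cortex median in markers of choroid plexus, hypothalamus or thalamus, all of them in choroid plexus markers, whose summed level reached 2068 CPM. At 12 months these were 6 of 10 LacQ140 libraries, 3 each of WT, WT + IPTG and LacQ140_2M and 2 each of LacQ140_A and LacQ140_8M. The comparisons between groups within a tissue and between tissues were recomputed without these libraries, an alternative chosen after seeing the data. Summed markers of spiny projection neurons lay at 5186 to 12203 CPM in the striatum libraries and at 248 to 782 CPM in the cortex libraries, without overlap. In the 12-month cortex the slope of log2 CPM on log2 transcript length averaged -0.08 over WT libraries, against 0.45 in the 6-month cortex and 0.46 in the 12-month striatum.

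GABA is made from glutamate by a pair of decarboxylases, loaded into vesicles by the vesicular transporter, taken back by membrane transporters and broken down in mitochondria. GABA-A receptors are pentameric chloride channels, and their subunits set where the receptor sits: receptors with the delta subunit are mostly extrasynaptic and carry tonic inhibition, while alpha2 is found at synapses. GABA-B receptors are G-protein-coupled dimers. The striatum is a largely GABAergic structure: its spiny projection neurons release GABA and receive it from local interneurons and from each other.

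In the striatum of LacQ140 mice, 4 of the 25 genes were called at both ages, all of them GABA-A receptor subunits. That role holds more members of the list than any other, and roles were not tested against each other. The share of all genes called at both ages was not counted, and the shares at each age are given below. *Gabrd* (the delta subunit), *Gabra4* (alpha4, a usual partner of delta) and *Gabra2* (alpha2) were lower than in WT + IPTG mice at 6 and 12 months, and *Gabra5* (alpha5, largely extrasynaptic) was higher. *Gabrd* fell by 0.36 ± 0.05 on the log2 scale (SE) at 6 months and by 0.61 ± 0.05 at 12 months, to 0.777-fold and 0.654-fold of the WT + IPTG level. At 6 months *Nlgn2*, *Lhfpl4* and *Gabrg3* were also higher. Of the 7 calls at 6 months, those of *Gabrd* and *Gabra4* held without libraries high in markers of other regions and the other 5 did not. Those of *Gabra2*, *Gabra5* and *Gabrg3* were also lost in some fits that left out 1 library.

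A gene was called changed at an adjusted p under 0.05 (edgeR quasi-likelihood test, Benjamini-Hochberg over all genes tested) and a change of at least 20%. By this rule 7 of 25 members were called in the striatum at 6 months, against 7.93% of all 35808 genes tested and 15.5% of those with a mean of at least 1 CPM. Of these, 4 were higher (3.97% of all genes) and 3 lower (3.96%). At 12 months 4 of 25 were called, against 9.44% of all genes tested and 17.8% of those of at least 1 CPM, with 1 higher (4.58%) and 3 lower (4.86%). The median log2 fold change of the 25 members was 0.0014 at 6 months and -0.03 at 12 months, where that of all genes of at least 1 CPM was -0.0052 and 0.0061. The share of members called at 6 months was above that of the genes of at least 1 CPM in this fit but depended on the libraries used: 3 members were called with WT and WT + IPTG pooled as the control, and 2 without libraries high in markers of other regions, both shares close to those of all genes of at least 1 CPM given below. At 12 months the share was close to that of the genes of at least 1 CPM. The plot of the 25 members shows which of them were called at both ages.

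**Figure D1:**
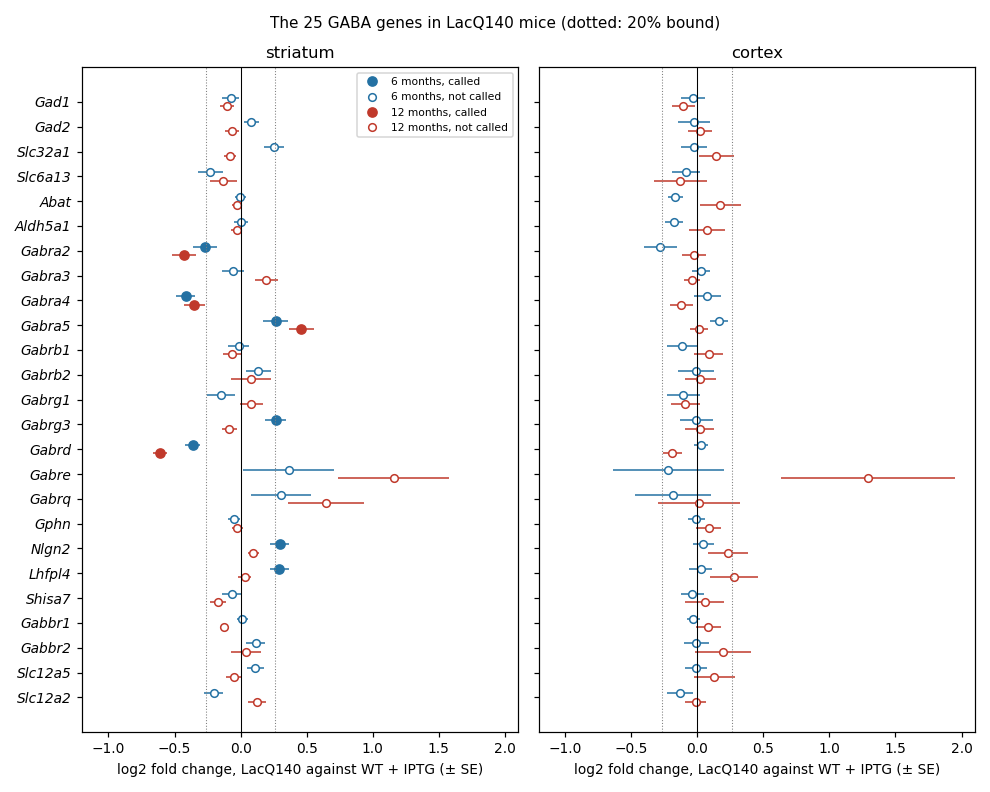
Log2 fold change of each of the 25 genes in LacQ140 against WT + IPTG mice (horizontal axis, bars: SE) in striatum (left) and cortex (right), at 6 months (blue) and 12 months (red); filled points passed the test and the 20% bound, drawn as dotted lines. In the striatum *Gabra2*, *Gabra4* and *Gabrd* lie left of the bound and *Gabra5* right of it at both ages, and no cortex point is filled.

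*Gabrd* separated the groups completely. At 6 months its level in the LacQ140 libraries was at lowest 117, at the median 127 and at highest 136 CPM, and in the WT + IPTG libraries 142, 156 and 182 CPM. At 12 months the corresponding levels were 81.9, 89.3 and 99.7 CPM in LacQ140 and 125, 134 and 166 CPM in WT + IPTG. No LacQ140 library reached the lowest WT + IPTG library at either age (adjusted p = 9.32e-07 and 4.4e-15 by edgeR). *Gabrd* was the only one of the 25 members whose groups did not overlap in this comparison. Of all genes tested, 1.15% at 6 months and 2.07% at 12 months had groups that did not overlap, and of those of at least 1 CPM 2.61% and 4.61%, so that 1 of 25 is near this background. The gene lies on chromosome 4 (chr4:155384980-155398112, minus strand, GRCm38), and no annotated gene overlaps it.

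*Gabra4* levels at 6 months were 128, 151 and 171 CPM (lowest, median, highest) in LacQ140 and 169.5, 199 and 254 CPM in WT + IPTG, a log2 change of -0.42 ± 0.07 (SE, adjusted p = 1.42e-05, edgeR). At 12 months they were 102, 122 and 150 CPM in LacQ140 and 138, 155 and 184 CPM in WT + IPTG, a log2 change of -0.35 ± 0.08 (adjusted p = 6.57e-04). At both ages the groups overlapped at their edges, the highest LacQ140 library lying above the lowest WT + IPTG library. *Gabra4* is on chromosome 5 (chr5:71569749-71658308, minus strand), and its start overlaps that of *Gabrb1* on the other strand (chr5:71658113-72149037). Whether the counting used strand is not given in the sources used here. *Gabrb1*, the beta1 subunit, changed by -0.01 ± 0.08 and -0.07 ± 0.07 (log2) at the 2 ages and was not called.

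*Gabra2*, in the same receptor cluster (chr5:70957597-71095849, minus strand), had 6-month levels of 21.4, 25.6 and 28.3 CPM in LacQ140 and 24.0, 30.9 and 42.2 CPM in WT + IPTG (log2 change -0.27 ± 0.09, adjusted p = 0.0327, edgeR). At 12 months they were 24.1, 26.96 and 35.9 CPM in LacQ140 and 31.3, 36.9 and 49.6 CPM in WT + IPTG (-0.43 ± 0.09, adjusted p = 2.24e-04). The groups overlapped at both ages. The 6-month call held in 12 of 20 fits that each left out 1 library and was lost without LacQ140 F1, M1, M2 or M4 or WT + IPTG F1, F2, M1 or M2, with the smallest change without WT + IPTG F2 (-0.21, adjusted p = 0.112). *Gabrg1* (gamma1), the remaining member in this cluster, was not called, with log2 changes of -0.15 ± 0.11 and 0.08 ± 0.09.

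*Gabra5* moved the other way. At 6 months it lay at 23.0, 26.1 and 32.0 CPM in LacQ140 and at 17.7, 22.1 and 27.5 CPM in WT + IPTG (0.27 ± 0.09, adjusted p = 0.04995, edgeR), and at 12 months at 16.9, 22.1 and 28.7 CPM against 10.9, 16.8 and 23.1 CPM (0.46 ± 0.09, adjusted p = 1.18e-04). Every LacQ140 library was above the WT + IPTG median, and the groups overlapped at both ages. The 6-month call held under 5 of 10 alternatives and in 7 of 20 fits that left out 1 library, with a change of 0.23 to 0.30, and it was lost without LacQ140 F1, F4, F5, M1, M2 or M4 or WT + IPTG F2, F3, F4, F5, M1, M3 or M5. Among the 10 alternatives, the removal of the fold bound cannot lose a call. *Gabra5* (chr7:57407672-57510059, minus strand) overlaps another gene on the opposite strand, so reads of the pair cannot be told apart without strand.

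**Figure D2:**
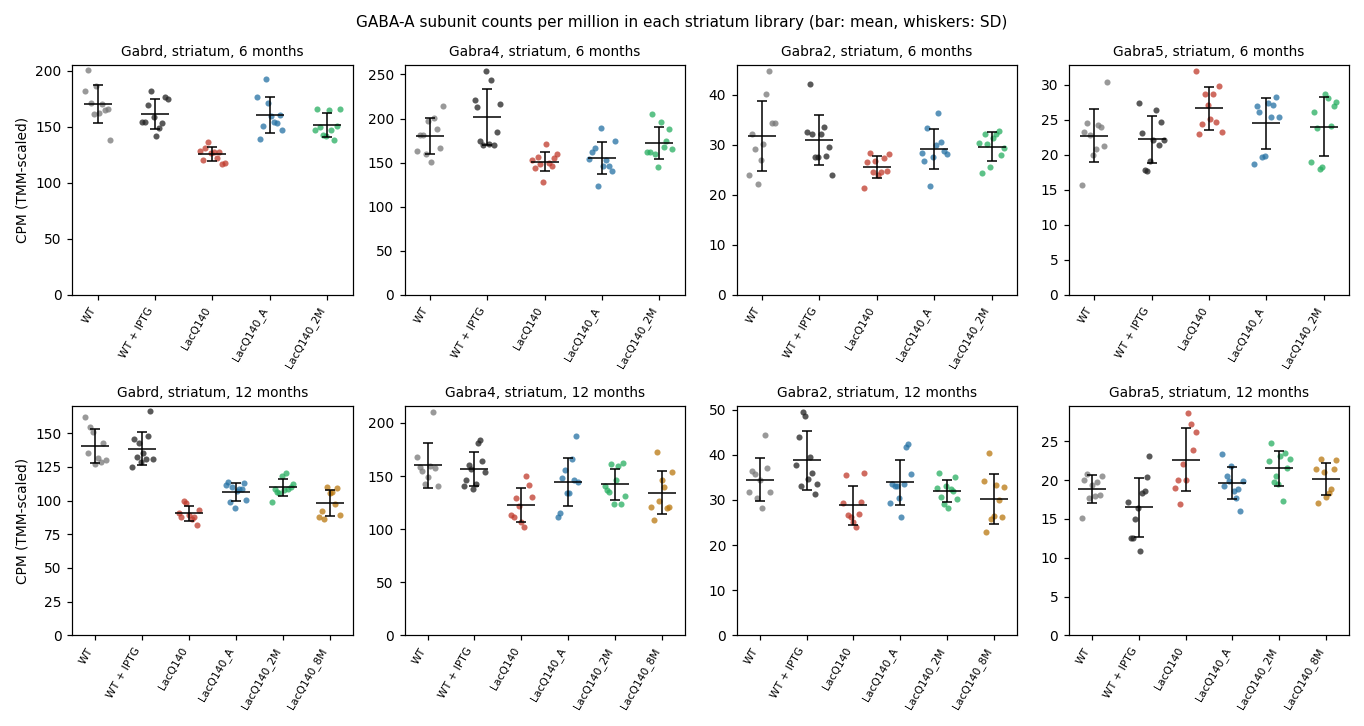
TMM-scaled CPM (vertical axis, from 0) of the 4 subunit genes called at both ages in every striatum library, by group, at 6 months (top) and 12 months (bottom); horizontal bars are means and whiskers SD. The LacQ140 points of *Gabrd* lie below all WT + IPTG points at both ages, while the groups overlap for the other 3 genes.

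Promoter sequences of RefSeq (GRCm38.p6, 250 bases before to 50 after the start, minus strand) are shown for the called alpha subunits, since *Gabra2* and *Gabra4* fell together and *Gabra5* rose. They matched 22 of the 25 members, without *Gabrd*, *Abat* and *Slc12a2*. Capitals mark a CCAAT box (CCAAT or ATTGG) and a GC box (GGGCGG or CCGCCC), searched on both strands, each match counted.
*Gabra2*, chr5:71095800-71096099: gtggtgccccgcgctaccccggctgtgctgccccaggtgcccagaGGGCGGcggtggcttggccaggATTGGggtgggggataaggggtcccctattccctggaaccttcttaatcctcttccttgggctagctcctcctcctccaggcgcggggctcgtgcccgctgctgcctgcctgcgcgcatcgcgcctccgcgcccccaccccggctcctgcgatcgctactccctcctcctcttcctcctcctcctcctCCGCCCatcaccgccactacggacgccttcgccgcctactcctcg
*Gabra4*, chr5:71658259-71658558: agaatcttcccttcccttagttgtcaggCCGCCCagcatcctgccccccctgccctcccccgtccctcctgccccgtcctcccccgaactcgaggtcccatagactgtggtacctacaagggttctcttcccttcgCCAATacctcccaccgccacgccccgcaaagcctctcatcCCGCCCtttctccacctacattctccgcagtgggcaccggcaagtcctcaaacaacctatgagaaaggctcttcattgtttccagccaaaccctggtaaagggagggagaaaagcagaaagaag
*Gabra5*, chr7:57510010-57510309: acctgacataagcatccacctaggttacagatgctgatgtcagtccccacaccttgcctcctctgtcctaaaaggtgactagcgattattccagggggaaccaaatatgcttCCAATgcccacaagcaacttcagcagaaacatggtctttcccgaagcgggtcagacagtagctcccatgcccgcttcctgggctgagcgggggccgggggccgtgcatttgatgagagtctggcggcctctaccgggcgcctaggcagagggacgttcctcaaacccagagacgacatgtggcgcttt
Each of the 3 windows held 1 CCAAT box, a motif present in 37.4% of all 32851 RefSeq promoters of this length and in 12 of the 22 members. The *Gabra2* and *Gabra4* windows held 2 GC boxes each and the *Gabra5* window 0, where 35.7% of all promoters and 15 of the 22 members held at least 1. The full CRE (TGACGTCA, its own reverse complement) was in 1.79% of all promoters and in 0 of the 22 members. GC content was 70.0%, 58.7% and 56.7%. Members were counted as genes with a match in any of their promoters, whereas the percentages count single promoters, so the units differ. Matches are letters in a window and were not tested against the expression values.

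The remaining calls were at 6 months only. *Nlgn2*, a postsynaptic adhesion protein of inhibitory synapses, lay at 162, 188 and 222 CPM in LacQ140 and 125, 154 and 190 CPM in WT + IPTG (0.30 ± 0.07, adjusted p = 0.00303, edgeR). *Lhfpl4*, which holds GABA-A receptors at those synapses, lay at 117, 147 and 168 CPM against 102, 113 and 140 CPM (0.29 ± 0.07, adjusted p = 0.00286). *Gabrg3* (gamma3) lay at 22.3, 28.4 and 35.4 CPM against 20.8, 24.4 and 28.7 CPM (0.26 ± 0.08, adjusted p = 0.0236), and its call held under 4 of 10 alternatives and in 13 of 20 fits that left out 1 library. Among the 10 alternatives, the removal of the fold bound cannot lose a call. The *Gabrg3* call was lost without LacQ140 F2, F3 or F5 or WT + IPTG F1, F5, M3 or M5 (0.23 to 0.30 over all 20 fits). All 3 overlapped between groups, and the untreated WT libraries averaged 169 CPM for *Nlgn2* and 129 CPM for *Lhfpl4*, between the 2 groups. With WT and WT + IPTG pooled as the control, only *Gabra2*, *Gabra4* and *Gabrd* were called at 6 months, where 7.57% of all genes and 13.5% of those of at least 1 CPM were. At 12 months *Nlgn2*, *Lhfpl4* and *Gabrg3* changed by 0.10 ± 0.04, 0.03 ± 0.05 and -0.08 ± 0.06 and were not called.

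Without the libraries high in markers of other regions, 2 of 25 members were called at 6 months, *Gabrd* (log2 change -0.43) and *Gabra4* (-0.36), where 4.25% of all genes and 8.77% of those of at least 1 CPM were called in the same fit. The values of *Gabra2*, *Gabra5*, *Gabrg3*, *Nlgn2* and *Lhfpl4* were then -0.34, 0.23, 0.19, 0.17 and 0.17, with adjusted p-values of 0.0581, 0.328, 0.424, 0.332 and 0.366. This left 5 WT + IPTG libraries. At 12 months the same step left *Gabra2* (-0.34), *Gabra4* (-0.28), *Gabra5* (0.40) and *Gabrd* (-0.63) called, against 7.86% of all genes and 15.5% of those of at least 1 CPM. The WT + IPTG libraries left out at 6 months were F5 (thalamus markers), M1 and M2 (thalamus and cortical markers), M3 (cortical markers) and M5 (thalamus and choroid plexus markers), and the LacQ140 library was F1 (cortical markers). In the comparison with all libraries thalamus markers were lower in LacQ140 for 4 of 4 genes at 6 months, with a summed level of 23.8 to 53.5 CPM against 26.2 to 214 CPM in WT + IPTG. The part of these markers, and of the smaller number of libraries, in the lost calls was not tested.

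Synthesis and transport genes were not called in the striatum. *Gad1* and *Gad2*, the decarboxylases that make GABA, averaged 572 and 409 CPM in 6-month LacQ140 striatum against 603 and 387 in WT + IPTG, log2 changes of -0.07 ± 0.06 and 0.08 ± 0.06, and at 12 months they changed by -0.10 ± 0.05 and -0.07 ± 0.05. The vesicular transporter *Slc32a1* changed by 0.25 ± 0.08 at 6 months, with an adjusted p of 0.022 by edgeR but under the 20% bound, and by -0.08 ± 0.05 at 12 months. *Slc6a13*, a GABA transporter, averaged 5.26 CPM in the 6-month LacQ140 libraries (6.18 CPM in WT + IPTG) and changed by -0.23 ± 0.10 and, at 12 months, by -0.13 ± 0.10.

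Breakdown, GABA-B and chloride genes were not called either. *Abat*, the GABA transaminase, and *Aldh5a1*, the dehydrogenase that follows it, changed by -0.0016 ± 0.04 and 0.0014 ± 0.05 (log2) at 6 months and by -0.03 ± 0.03 and -0.03 ± 0.04 at 12 months. *Gabbr1* changed by 0.01 ± 0.04 at 6 months and by -0.12 ± 0.03 at 12 months (adjusted p = 0.00118 by edgeR, below the 20% bound), and *Gabbr2* by 0.11 ± 0.07 and 0.04 ± 0.11. The chloride extruder *Slc12a5* changed by 0.11 ± 0.06 and -0.05 ± 0.06. The chloride importer *Slc12a2* changed by -0.20 ± 0.07 (adjusted p = 0.0468, below the bound) and by 0.12 ± 0.07.

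Of the other receptor genes, *Gabra3* (alpha3) changed by -0.06 ± 0.09 and 0.19 ± 0.09, and *Gabrb2* (beta2) by 0.14 ± 0.09 and 0.08 ± 0.15. *Gphn*, the gephyrin scaffold, changed by -0.05 ± 0.04 and -0.02 ± 0.04. *Shisa7*, an auxiliary subunit, changed by -0.06 ± 0.08 and -0.17 ± 0.06 (adjusted p = 0.0412 at 12 months, below the bound). *Gabre* (epsilon) and *Gabrq* (theta) had few reads, at most 1.03 and 5.05 CPM in a LacQ140 library, and were not called by edgeR at either age. *Gabre* was 1.16 ± 0.42 higher (log2) at 12 months with an adjusted p of 0.0518, and was called there by DESeq2. Its mean was then 0.600 CPM in LacQ140, 0.273 in WT + IPTG and 0.652 in untreated WT, so that the LacQ140 mean was not above that of untreated WT.

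The projection neuron markers moved beside these genes. Of 11 markers of spiny projection neurons 9 were lower at 6 months and 10 at 12 months, with *Penk*, an opioid peptide precursor, at -0.72 and -1.30 and *Pde10a*, a phosphodiesterase of these cells, at -0.60 and -1.10 (log2). Their summed level was 5679 to 7414 CPM in LacQ140 against 6980 to 10348 in WT + IPTG at 6 months, and 5186 to 6381 against 8953 to 12203 at 12 months. Of 8 interneuron markers 1 was called at each age, *Pvalb* at 6 and *Nos1* at 12 months. Fewer cells of a type and less RNA per cell cannot be told apart in these bulk samples, and the part of the projection neurons in the subunit changes was not tested.

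Some markers of glia, vessels and meninges were lower in LacQ140 striatum as well. At 6 months these were 4 of 6 microglia, 3 of 6 oligodendrocyte, 1 of 6 astrocyte, 1 of 5 endothelial and 3 of 8 meningeal fibroblast markers, and at 12 months 1, 2, 0, 2 and 1 of them, with 0 higher. The summed level at 6 months was 288 to 336 CPM in LacQ140 against 337 to 412 in WT + IPTG for microglia and 9681 to 12161 against 12571 to 16162 for oligodendrocytes, both without overlap. It was 941 to 1126 against 1112 to 1411 for astrocytes, 208 to 248 against 231 to 320 for endothelial cells and 35.5 to 53.4 against 48.4 to 62.3 for meningeal fibroblasts, with overlap. At 12 months all 5 sums overlapped, at 312 to 389 against 354 to 417 CPM for microglia, 8530 to 13912 against 11151 to 14936 for oligodendrocytes, 899 to 1087 against 903 to 1147 for astrocytes, 192 to 263 against 240.03 to 303 for endothelial cells and 36.4 to 50.5 against 45.6 to 68.5 for meningeal fibroblasts. Their part in the changes of the 25 genes was not tested.

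Among the 35 other pathway genes 6 were called in the striatum at 6 months (3 higher, 3 lower) and 5 at 12 months (1 higher, 4 lower), shares near the 15.5% and 17.8% of genes of at least 1 CPM that were called. Called at both ages were *Hap1* and *Glul*. *Hap1*, the huntingtin-associated protein that also traffics GABA-A receptors, averaged 139 CPM in LacQ140 and 102 in WT + IPTG at 6 months (0.45 ± 0.09) and 169 against 110 at 12 months (0.62 ± 0.11). *Glul*, the glutamine synthetase of astrocytes, averaged 1863 against 2262 CPM (-0.28 ± 0.05) and 1460 against 2058 CPM (-0.49 ± 0.05). The summed astrocyte markers given above were at a median of 1032 CPM in LacQ140 and 1186 in WT + IPTG at 6 months and of 981 and 1073 at 12 months, and their part in the *Glul* difference was not tested. *Insyn1*, a protein of inhibitory synapses, and *Plcl1*, which binds GABA-A receptors, were lower at 12 months only (-0.44 and -0.37).

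In the cortex 0 of 25 members were called in LacQ140 against WT + IPTG mice at either age, by edgeR and by DESeq2, where 0.881% of genes at 6 months and 0.0899% at 12 months were called. At an unadjusted p under 0.05 there were 4 and 1 members. Summed choroid plexus markers in the 12-month cortex lay at 7.17 to 1107 CPM in LacQ140 (median 569.9) and at 2.56 to 1330 CPM in WT + IPTG (median 18.97), with 0 of 6 markers called. Without the libraries high in these markers 0 members were called by edgeR at either age, where 0.174% and 0.006% of all genes and 0.383% and 0.0136% of those of at least 1 CPM were. This left 4 of 10 LacQ140 libraries at 12 months. With all libraries *Gabrd* changed by 0.03 ± 0.05 and -0.19 ± 0.07 and *Gabra4* by 0.08 ± 0.10 and -0.12 ± 0.09 (log2, SE). The difference of the LacQ140 effect between striatum and cortex was tested in a fit with the mouse as a block, and called at an adjusted p under 0.05 with no bound on the fold. At 6 months it was called for 2 members, *Gabra4* (-0.49 ± 0.13, adjusted p = 0.0315) and *Gabrd* (-0.40 ± 0.07, adjusted p = 1.4e-04), where 1.19% of genes were. At 12 months it was called for 3 members, *Gabrd* (-0.44 ± 0.09, adjusted p = 0.00106), *Gabra5* (0.43 ± 0.10, adjusted p = 0.00897) and *Gabra2* (-0.40 ± 0.12, adjusted p = 0.0414), where 2.85% of genes were. The difference of *Gabra2* and *Gabra5* at 6 months and of *Gabra4* at 12 months did not pass. Without the libraries of either tissue that were high in markers of other regions, 0 members were called at both ages, where 0.121% and 0.3% of all genes and 0.267% and 0.668% of those of at least 1 CPM were called by edgeR. *Gabra4* and *Gabrd* were then at -0.47 and -0.38 at 6 months (adjusted p = 0.835 and 0.0548), and *Gabrd*, *Gabra5* and *Gabra2* at -0.46, 0.48 and -0.42 at 12 months (adjusted p = 0.244, 0.39 and 0.679). This left 8 LacQ140 and 4 WT + IPTG mice at 6 months and 3 and 5 at 12 months, and the part of the markers and of the smaller number of mice in the lost calls was not tested.

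The difference of the LacQ140 effect between females and males in the striatum was called for 0 of 25 members by edgeR at 6 and at 12 months, where 0% and 0.00565% of genes were called, and 0 and 4 members passed an unadjusted p under 0.05. DESeq2 was not run for it. The difference for *Gabrd* was 0.03 ± 0.10 at 6 months and 0.18 ± 0.10 at 12 months (log2, females minus males). Between 12 and 6 months the effect differed for 3 members, where 2.2% of genes were called: *Slc32a1* (-0.34 ± 0.09, adjusted p = 0.0239), *Gabrg3* (-0.35 ± 0.10, adjusted p = 0.0368) and *Gabrd* (-0.25 ± 0.07, adjusted p = 0.0437, edgeR). Age and batch cannot be told apart in this difference.

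In WT + IPTG against WT mice 0 of 25 members were called in either tissue at either age, by edgeR and by DESeq2. The share of genes called was 0.584% in striatum and 0.609% in cortex at 6 months, and 0.218% and 0% at 12 months. At an unadjusted p under 0.05 there were 2, 5, 4 and 1 members. *Gabrd* changed by -0.08 ± 0.05 and -0.02 ± 0.05 (log2) in the striatum of WT + IPTG against WT mice.

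*Gabrd* was higher in LacQ140_A and LacQ140_2M than in LacQ140 striatum at 6 months, and in LacQ140_2M at 12 months. The lowering comparisons and that of LacQ140 against WT + IPTG share the LacQ140 libraries, so their values are set side by side only. LacQ140 mice were on IPTG at collection and the lowering groups were not. IPTG and m*Htt* lowering can therefore not be told apart in these comparisons. At 6 months *Gabrd* lay at 139, 157 and 192 CPM (lowest, median, highest) in LacQ140_A and at 138, 149 and 166 CPM in LacQ140_2M, above every LacQ140 library in both groups. Of the genes of at least 1 CPM, 0.635% and 0.372% did not overlap with LacQ140 in these groups. The log2 change was 0.35 ± 0.05 for LacQ140_A (adjusted p = 6.32e-06, edgeR) and 0.27 ± 0.05 for LacQ140_2M (adjusted p = 0.00136). *Gabrd* was the 1 member called in each, where 1.88% and 1.26% of genes were, and 3 and 10 members passed an unadjusted p under 0.05. In LacQ140_2M further members were called with another gene filter or with only the groups compared in the fit, as counted below.

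At 12 months *Gabrd* lay at 94.2, 109 and 114 CPM in LacQ140_A, at 99.0, 108 and 121 CPM in LacQ140_2M and at 86.2, 97.8 and 110 CPM in LacQ140_8M. These 3 groups overlapped LacQ140. The *Htt* counts of LacQ140_8M given above were not below those of LacQ140 in striatum, whereas in the 12-month cortex they averaged 19.1 ± 5.15 CPM in LacQ140_8M and 25.01 ± 4.84 in LacQ140 (SD, n = 10 each), with overlap. These counts sum both alleles, so mutant *Htt* alone was not measured, and the differences were not tested. The change in LacQ140_2M was called (0.28 ± 0.05, adjusted p = 6.55e-04, edgeR), as 1 of 25 members, where 0.608% of genes were called. That in LacQ140_A (0.24 ± 0.05, adjusted p = 0.00501) was below the 20% bound, so that 0 members were called there against 0.91% of genes, with 8 members at an unadjusted p under 0.05. In LacQ140_8M the change was 0.12 ± 0.05 (adjusted p = 0.864), with 0 members called against 0.00565% of genes and 1 member at an unadjusted p under 0.05. DESeq2 also called 0 in both. LacQ140_8M against LacQ140_2M called 0 members by both tools, where 0.0933% of genes were called, and 1 member passed an unadjusted p under 0.05. Without the libraries high in other regions' markers the LacQ140_2M value at 12 months was 0.24 and below the bound.

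**Figure D3:**
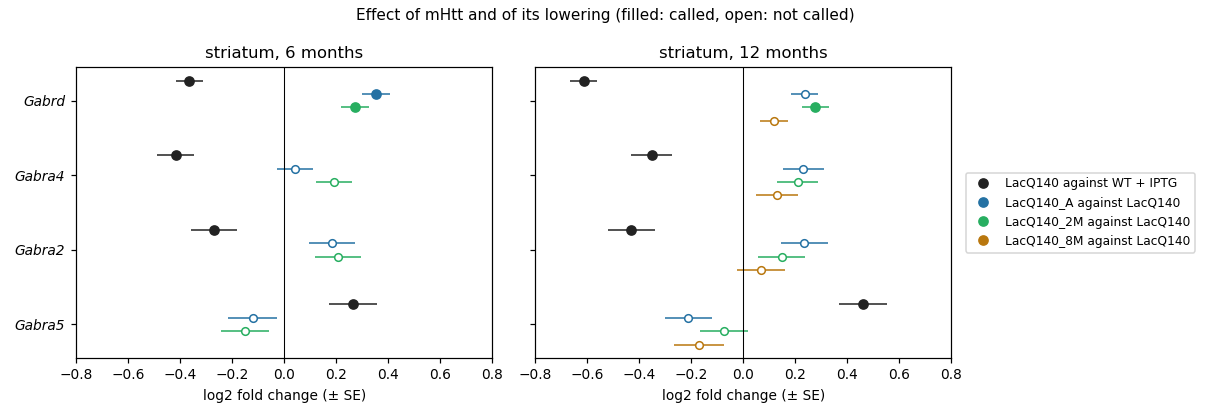
Log2 fold change with SE (horizontal axis) of *Gabrd*, *Gabra4*, *Gabra2* and *Gabra5* in striatum at 6 months (left) and 12 months (right) for LacQ140 against WT + IPTG (black) and for each lowering group against LacQ140 (blue, green, amber); filled points were called. *Gabrd* is the only gene with filled lowering points, in LacQ140_A and LacQ140_2M at 6 months and LacQ140_2M at 12 months.

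The other 3 subunit genes were not called in any lowering group. *Gabra4* changed by 0.04 ± 0.07 in LacQ140_A and 0.19 ± 0.07 in LacQ140_2M at 6 months, and by 0.23 ± 0.08, 0.21 ± 0.08 and 0.13 ± 0.08 in LacQ140_A, LacQ140_2M and LacQ140_8M at 12 months. *Gabra2* changed by 0.18 ± 0.09 and 0.21 ± 0.09, then 0.24 ± 0.09, 0.15 ± 0.09 and 0.07 ± 0.09 in the same order. *Gabra5* was lower by these estimates, at -0.12 ± 0.09 and -0.15 ± 0.09, then -0.21 ± 0.09, -0.07 ± 0.09 and -0.17 ± 0.09. The summed level of the spiny projection neuron markers was 7917 to 10160 CPM in LacQ140_A and 7575 to 8776 in LacQ140_2M at 6 months, above all LacQ140 libraries, and 6319 to 8240, 5188 to 8096 and 5608 to 7035 in LacQ140_A, LacQ140_2M and LacQ140_8M at 12 months, overlapping LacQ140; its part in the *Gabrd* difference was not tested. A p that misses the threshold does not show that these levels stayed at those of LacQ140.

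Against untreated WT striatum, 0 members were called in LacQ140_A and LacQ140_2M at 6 months by edgeR and by DESeq2, where 0.91% and 0.936% of genes were, with 2 members in each at an unadjusted p under 0.05. *Gabrd* was at -0.09 ± 0.05 and -0.17 ± 0.05. At 12 months *Gabrd* was called lower in LacQ140_A (-0.40 ± 0.05, adjusted p = 4.31e-08), LacQ140_2M (-0.35 ± 0.05, adjusted p = 6.35e-07) and LacQ140_8M (-0.51 ± 0.05, adjusted p = 1.21e-11, edgeR), and each of these groups lay wholly below the WT libraries, at 127, 135 and 162 CPM. Of the genes of at least 1 CPM 1.67%, 2.64% and 5.84% did not overlap with WT in these groups. Of 11 markers of spiny projection neurons 10 were lower than in WT in each group, and their summed level, at most 8240, 8096 and 7035 CPM, also lay wholly below WT, at 9846 to 11360 CPM. Of 6 oligodendrocyte markers 1, 2 and 3 were lower, with sums of 10279 to 17554, 9875 to 12483 and 10043 to 12029 CPM against 12594 to 15748 CPM in WT, without overlap in LacQ140_2M and LacQ140_8M. The part of these markers in the *Gabrd* difference was not tested. The members called numbered 2, 1 and 2, where 3.15%, 4.09% and 7.77% of genes were called. The further calls were *Slc12a2* in LacQ140_A (0.27 ± 0.07, adjusted p = 0.0119) and *Gabrb2* in LacQ140_8M (0.53 ± 0.16, adjusted p = 0.0167). *Gabrb2* was at 0.09 (adjusted p = 0.485) with the transcript length slope of each library as a covariate and was then not called.

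In the cortex 0 of 25 members were called in any lowering group against LacQ140 by edgeR or DESeq2, where the share of genes called was 0.00834% (LacQ140_A) and 0% (LacQ140_2M) at 6 months and 0.0435% (LacQ140_A), 0.0841% (LacQ140_2M) and 0% (LacQ140_8M) at 12 months. Between 1 and 4 members passed an unadjusted p under 0.05 in each. With only the groups compared in the fit, 5 members were called lower in LacQ140_A than in LacQ140 at 12 months, *Abat*, *Gabrb2*, *Gabbr2*, *Nlgn2* and *Lhfpl4*, where 6.06% of all genes and 12.1% of those of at least 1 CPM were called. Between these groups the length slope averaged -0.12 in LacQ140_A and -0.02 in LacQ140, the longest transcripts of the 5 genes measure 3989 to 5750 bases, and summed choroid plexus markers lay at 6.98 to 1046 CPM (median 14.6) in LacQ140_A against 7.17 to 1107 CPM (median 569.9) in LacQ140, with 0 of 6 markers called. The part of slope and markers in the 5 calls was not tested.

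The levels of these genes in the 2 tissues were compared in WT mice without IPTG, with the mouse as a block. At 6 months 18 of 25 members were called, 12 higher in striatum and 6 higher in cortex, where 31.4% of all genes were called (14.8% higher and 16.7% lower in striatum) and 51% of those of at least 1 CPM. Genes of GABA synthesis and vesicular loading were higher in striatum: *Slc32a1* at 227 ± 33.8 against 53.2 ± 11.4 CPM (SD, n = 10; log2 2.11 ± 0.09), *Gad2* at 359 ± 27.4 against 119 ± 22.6 (1.61 ± 0.08) and *Gad1* at 560 ± 40.6 against 261 ± 37.9 (1.11 ± 0.08). *Gabrd* was also higher, at 165 ± 16.4 against 66.0 ± 3.7 CPM (1.31 ± 0.06).

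Higher in cortex were *Gabbr2* (-2.03 ± 0.08), *Gabra3* (-1.96 ± 0.06), *Slc6a13* (-1.60 ± 0.09) and *Gabra5* (-1.53 ± 0.07). Summed meningeal fibroblast markers lay at 127 to 181 CPM in these cortex libraries and at 48.8 to 61.7 CPM in these striatum libraries. Their part in the tissue difference of *Slc6a13* was not tested. *Gabra4* (0.68 ± 0.09) and *Gabrg3* (0.73 ± 0.11) were higher in striatum, while *Gabra2* (0.11 ± 0.10) was not called. Without the libraries high in markers of other regions 18 members were called as well, where 30.3% of all genes and 50.1% of those of at least 1 CPM were. Per kb of the longest annotated transcript, the members most abundant in striatum were *Gad1* (156 CPM per kb), *Gabbr1* (137) and *Abat* (125), and the subunits of GABA-A receptors ranged from *Gabrd* (60.8) and *Gabra4* (42.4), through *Gabrb2* (16.0), *Gabra3* (12.2), *Gabra5* (8.2) and *Gabra2* (5.26) to *Gabre* (0.083). Among the subunits of this list *Gabrd* and *Gabra4*, both lower in LacQ140 striatum, had the highest levels per kb, and the order among the subunits was not tested.

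**Figure D4:**
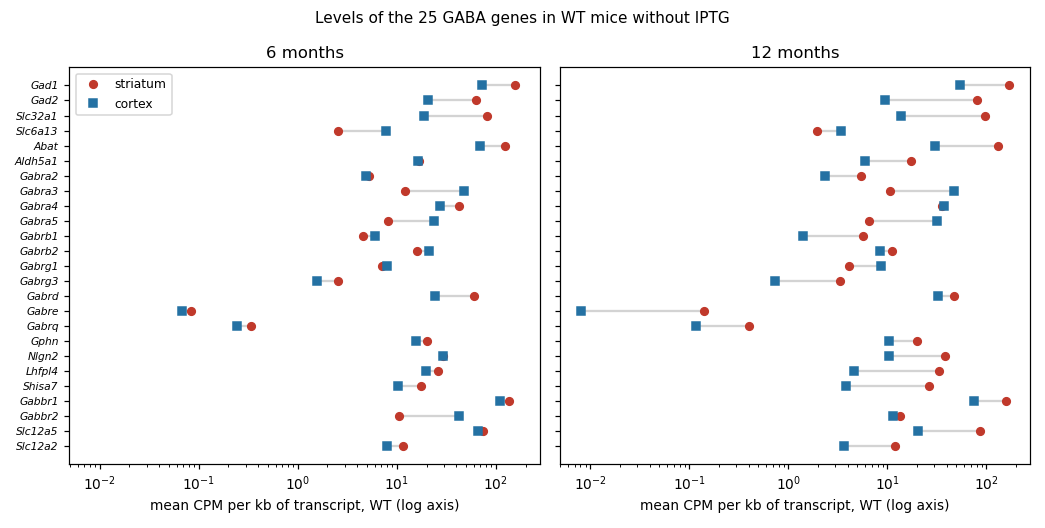
Mean level (CPM per kb of transcript, log axis) of the 25 genes in striatum (red circles) and cortex (blue squares) of WT mice without IPTG at 6 months (left, 10 mice) and 12 months (right, 9 mice). *Gad1*, *Gad2*, *Slc32a1* and *Gabrd* lie to the right in striatum at both ages, and *Gabra3* and *Gabra5* to the right in cortex.

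At 12 months 24 of 25 members were called, 20 higher and 4 lower in striatum, where 51.1% of all genes were (25% higher, 26.1% lower) and 83.7% of those of at least 1 CPM. The length slope of the 12-month cortex libraries was -0.08 against 0.46 in striatum, whereas at 6 months it was 0.45 and 0.40, and its part in the 12-month tissue difference was not tested. *Gabra3* (-2.13 ± 0.08), *Gabra5* (-2.31 ± 0.08) and *Gad1* (1.64 ± 0.09) had the same sign as at 6 months, while *Gabbr2* went from -2.03 to 0.34 ± 0.13, and *Nlgn2* from -1.6e-04 to 1.93 ± 0.10. *Gabra4*, higher in striatum at 6 months, was the member not called at 12 months, at 148 ± 19.0 CPM in striatum and 155 ± 12.2 in cortex (SD, n = 9; -0.08 ± 0.07), whereas *Gabrg3* stayed higher in striatum (2.19 ± 0.09). Without the libraries high in markers of other regions 23 members were called, where 49% of all genes and 81.2% of those of at least 1 CPM were, with *Gabbr2* then not called.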

How the data were processed

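RNA was extracted by the study from striatum and cortex and sequenced as paired-end RNA-Seq. The authors deposited 1 table of expected counts per gene for each age, with 54532 genes, of which 32.22% of non-zero values were not whole; the aligner and counter are not given in the sources used here. Of the genes, 54495 matched GENCODE vM21 (GRCm38). Expected counts were rounded, and 1 edgeR 4.0.16 fit (quasi-likelihood, TMM, R 4.3.3) took in every group of a given tissue and age, on genes with at least 1 count. Calls required an adjusted p under 0.05 and a change of at least 20%; differences between effects had no fold bound. The mouse was a block in tissue comparisons. Standard errors were taken from the log2 fold change and F statistic. Library totals were 33292057 to 68038831. Across 963 pairs of libraries of 1 group the lowest chi-square per degree of freedom was 6.15, so all were counted as separate libraries. The fit of striatum at 6 months was tested on simulated data, with the outcome not given here. Alternatives were DESeq2 1.42.0, other filters, size factors, covariates, blocks, control groups and left-out libraries. All 25 members are reported by role. The members and lists were chosen with earlier results of these data known.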

Additional observations from a re-analysis of the deposited data

Results flagged for a closer look

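In WT + IPTG striatum at 6 months the highest *Gabra2* library, F2 at 42.2 CPM, stood apart from the other libraries of its group, and in WT striatum at 12 months the highest *Gabra4* library, M3, did so at 210.8 CPM. These were 2 of 53 groups of libraries looked at, and chance flags about 1 in 20 groups.

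The LacQ140 effect differed between striatum and cortex at 6 months for *Gabra4* (-0.49, log2) and *Gabrd* (-0.40), and at 12 months for *Gabra2* (-0.40), *Gabra5* (0.43) and *Gabrd* (-0.44). None of these 5 differences passed without the libraries high in markers of other regions. Between 12 and 6 months in striatum it differed for *Slc32a1* (-0.34), *Gabrg3* (-0.35) and *Gabrd* (-0.25), where age and batch cannot be told apart.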

How the results depend on the processing

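Of 244 alternatives to 31 numbers of called members, 226 lay within 1.5 times the reported number. Many of these 31 numbers were 0, and a 0 that stayed 0 lies within this range. The 226 is therefore no measure of how firmly the reported calls held. Of 182 alternatives to 19 called values, 163 were still called and 0 reversed. For LacQ140 against WT + IPTG in striatum at 6 months, 3 members were called with WT and WT + IPTG pooled and 2 without the libraries high in markers of other regions, an alternative chosen after seeing the data; leaving out 1 library gave 5 to 9 at 6 months, 4 to 5 at 12 months and 0 in cortex. With the WT groups pooled, 1 was called in the 6-month cortex. For LacQ140_2M against LacQ140 in striatum, 2 were called at 6 months with filterByExpr and 3 with only the groups compared, and 0 at 12 months without the libraries high in other markers. With no fold bound, 12-month striatum gave 1 for LacQ140_A against LacQ140, and 4, 2 and 5 for LacQ140_A, LacQ140_2M and LacQ140_8M against WT. With the length slope as a covariate, 1 was called for LacQ140_A against LacQ140 in 12-month striatum and 1 for IPTG in 6-month cortex. With only the groups compared, 2 were called for LacQ140_2M against WT in 12-month striatum and 5 for LacQ140_A against LacQ140 in 12-month cortex. The age difference gave 5 with filterByExpr. The difference between tissues gave 0 at both ages without the libraries high in markers of other regions. Where no share of all genes called in the same fit is given above, these counts cannot be set against the background. The cause of these shifts was not tested.

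Samples with the same replicate number did not deviate together (mean correlation -0.046 to 0.044, lowest -0.781), so the numbers do not pair them. With the replicate block, 1 member in place of 2 was called for LacQ140_A against WT in 12-month striatum, where *Slc12a2* was at 0.25.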
